A study of Mus musculus with 6 samples.

Results

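The mTORC1 signalling and nutrient sensing genes described here are 56 named mouse genes, sorted into 13 roles by what their proteins do. They were taken by gene name from the authors' deposited tables of N6-methyladenosine (m6A) peaks, by a rule that uses no measured value, although the list was drawn up with earlier results of these data known. Of the 56 genes, 43 had at least 1 peak in the ClpP comparison and 48 in the ClpX comparison, of 13334 and 13085 genes with a peak in all. These genes carried 80 of 24127 peaks and 81 of 23681 peaks. All 43 were also in the ClpX comparison, and Castor1, Castor2, Deptor, Nprl3 and Sec13 had a peak in the ClpX comparison alone. Kptn, Lamtor3, Lamtor4, Lamtor5, Nprl2, Rheb, Seh1l and Tbc1d7 had no peak listed in either and count as unmeasured. Below, pathway genes, peaks and values mean those of these 56 genes alone, unless other genes of the pathway are named.

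The study used m6A-seq, in which RNA fragments carrying the m6A mark are captured with an antibody and the immunoprecipitated (IP) library is sequenced beside an input library of uncaptured RNA. The 6 libraries came from spermatocytes of male mice at postnatal day 35, 1 IP and 1 input library for each of 3 genotypes: wild type (WT) controls, a ClpP conditional knockout (cKO) and a ClpX cKO. Both knockouts were restricted to male germ cells by Stra8-Cre, a recombinase driven by a promoter active from the premeiotic germ cell onward, so other cells of the testis keep ClpP and ClpX. ClpP and ClpX form a protease of the mitochondrial matrix, and the title of the study names mitochondrial function, mTORC1 signalling and meiosis. How many animals lay behind a library, and whether animals were pooled, the sources used here do not say.

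mTORC1 is a protein kinase complex that raises protein synthesis and cell growth and holds back autophagy when nutrients and growth factors are plentiful. Amino acids act through the Rag GTPases, which bring the complex to the lysosome, and growth factors act through the TSC complex and the small GTPase Rheb, which switches the kinase on there. In the testis the pathway is known for its part in keeping and differentiating spermatogonia, and in meiotic progression. m6A is the commonest internal mark of mRNA, tends to lie in long internal exons and near stop codons, and is linked to mRNA decay and translation.

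Each peak has a fold enrichment, the linear ratio of IP over input, given once for the 4 libraries of a comparison. It also has a log2 fold change of m6A enrichment between knockout and WT. A positive value is read here as higher in the knockout, which rests on nothing but the order of the names in each table, knockout before WT. Peaks whose difference had an adjusted p under 0.05 in the authors' tables are termed called, higher or lower by the sign of the log2 fold change. With 1 library per group there is no replicate error and no replicate check, and a call compares these libraries rather than the genotypes in general. Values per library and read depth were not used here, so a change of IP and a change of input cannot be told apart. In the bulk libraries, fewer cells of a type and less RNA per cell cannot be told apart either. Coordinates are on GRCm38.

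The labelled cell type was checked against marker genes. Of 20 spermatocyte markers, 13 had a peak in the ClpP comparison and 10 in the ClpX comparison, and Sycp1, Sycp2, Spo11 and Hspa2 were among those in both. The spermatocyte medians over genes were 0.29 (ClpP) and 0.84 (ClpX). Of the spermatocyte peaks, 6 of 22 were called higher and 3 lower for ClpP, and 6 of 13 higher and 1 lower for ClpX. A marker without a peak may still be expressed. Spermatid markers had peaks for 13 of 15 genes in both comparisons, with medians over genes of -0.20 (ClpP) and 0.73 (ClpX). Of the spermatid peaks, 4 of 26 were called higher and 8 lower for ClpP, and 12 of 23 higher and 0 lower for ClpX. Spermatogonium markers had peaks for 7 of 10 genes in both, with medians over genes of 0.77 (ClpP) and 1.04 (ClpX). Of the spermatogonium peaks, 1 of 15 was called higher and 1 lower for ClpP, and 5 of 13 higher and 1 lower for ClpX. Markers of Sertoli cells had peaks for 8 of 10 genes in both comparisons, and those of Leydig, peritubular, endothelial and immune cells for 9 and 12 of 18. The Sertoli medians over genes were -0.67 (ClpP) and 0.18 (ClpX). For ClpP 1 of 21 Sertoli peaks was called higher and 1 lower. For ClpX 3 of 20 Sertoli peaks were called higher and 2 lower. Over all peaks the median log2 fold change was -0.03 (ClpP) and 0.24 (ClpX). The median over the Leydig, peritubular, endothelial and immune markers was 1.13 (ClpP, 3 of 16 peaks called higher) and 1.91 (ClpX, 6 of 21 called higher), with Cyp11a1, Acta2, Pecam1, Vwf, Adgre1 and Cd68 without a peak in either. The part of such cells in the values below was not tested.

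In ClpP cKO spermatocytes more mTORC1 pathway peaks were called lower than higher, and in ClpX cKO spermatocytes more were called higher than lower. In the ClpP comparison 4 peaks on 4 genes were called higher, 5.0% of the pathway's peaks, and 9 peaks on 8 genes were called lower, 11.2%. Of all peaks in that comparison, 6.74% were called higher and 12.8% lower. In the ClpX comparison 14 peaks on 12 genes were called higher, 17.3% of the pathway's peaks, and 4 peaks on 4 genes lower, 4.94%. Of all peaks there, 15.1% were called higher and 5.0% lower. The shares over the pathway lay near those over all peaks, so the counts are not a result about these genes in particular. With each gene represented by its peak of smallest p, the median log2 fold change was -0.27 for the pathway genes and -0.16 for all genes (ClpP), and 0.44 and 0.36 (ClpX).

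**Figure D1:**
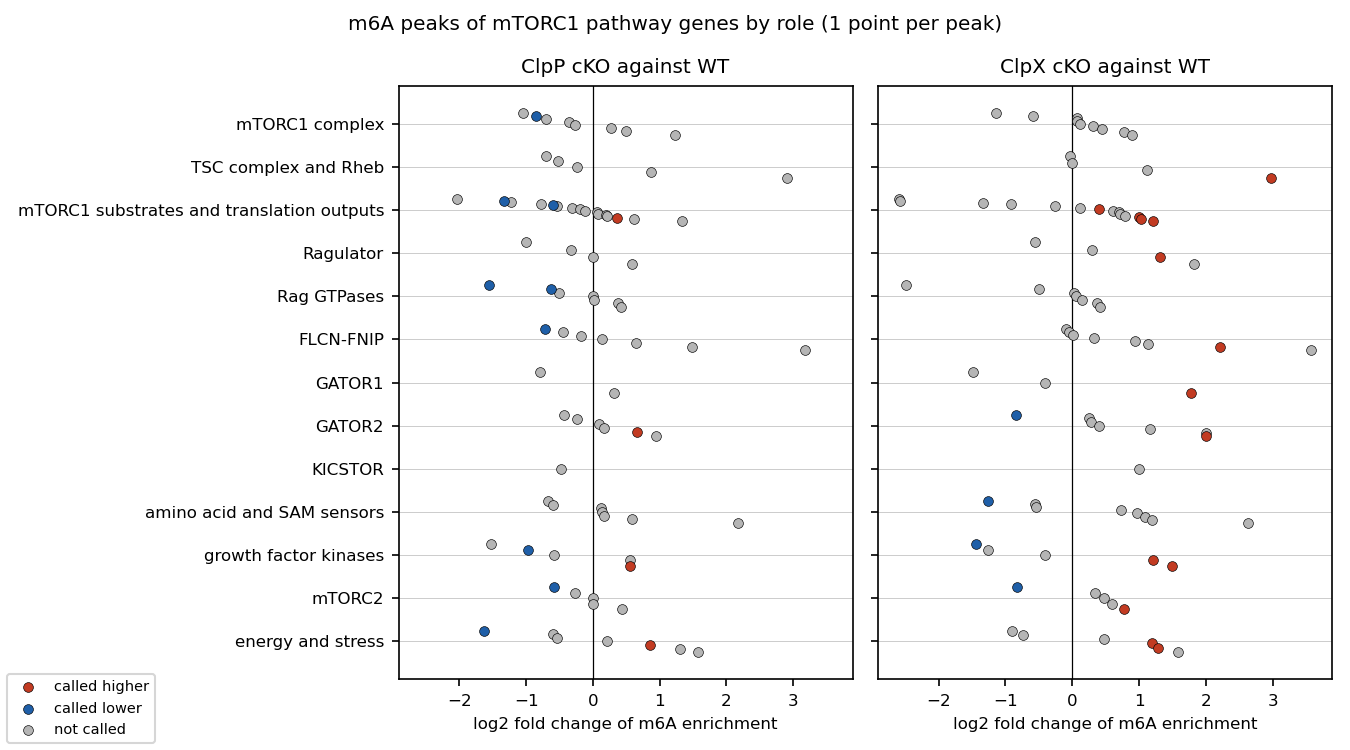
Log2 fold change of m6A enrichment (x axis, cKO over WT) of every mTORC1 pathway peak, by role of the gene (y axis), in ClpP cKO against WT (left) and ClpX cKO against WT (right). Each point is 1 peak, coloured by the authors' adjusted p under 0.05; in the ClpP comparison 4 points were called higher and 9 lower, in the ClpX comparison 14 and 4.

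The kinase itself was among the genes called lower in ClpP cKO. Mtor, the catalytic subunit shared by mTORC1 and mTORC2, carried 1 peak at the 3′ end of the gene (chr4:148553096-148557683, plus strand, 3 blocks), which ended 2 bases before the end of the RefSeq gene span. In the authors' deposited table for ClpP its log2 fold change was -0.85, with a fold enrichment of 9.56 and an adjusted p of 3.98e-18. That put it at rank 252 of 3096 peaks called lower, the smallest adjusted p of any peak of the 56 genes in either comparison. The overlapping ClpX peak (chr4:148556311-148557653) stood at 0.07 with a fold enrichment of 12.1 and an adjusted p of 0.557 per the authors' deposited table, so the site was called in 1 knockout and sat near 0 in the other. Whether the 2 knockouts differ there was not tested.

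No other peak of the mTORC1 complex was called. Rptor, the scaffold that presents substrates to the kinase, had 5 peaks in each comparison, among them 2 neighbouring peaks at the very end of the gene. In the authors' deposited table for ClpP the first of these (chr11:119898498-119898977) was at -1.04 with an adjusted p of 0.0631, and the second (chr11:119899157-119899456) at 1.23 with 0.117. For ClpX the authors' deposited table gave -1.14 (adjusted p 0.0813) and 0.44 (0.570) at these sites. The first of the neighbours thus had a negative value in both comparisons and the second a positive one. Its peaks in the first part of the gene were at -0.36 and 0.50 (ClpP) and at 0.78 and 0.90 (ClpX), and the other 2, each found in 1 comparison, at -0.26 (ClpP) and 0.07 (ClpX), in the authors' deposited tables. Mlst8, a subunit of both mTOR complexes, was at -0.70 (ClpP, adjusted p 0.0955) and -0.59 (ClpX, 0.296), and Akt1s1, which encodes the inhibitor PRAS40, at 0.28 and 0.31, in the authors' deposited tables. Deptor, another inhibitor, was measured only for ClpX, at 0.12 in the authors' deposited table.

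Upstream of the kinase, the TSC complex gave the largest called increase among the 56 genes. TSC2 is the subunit that switches Rheb off, and TSC1 stabilises it. The Tsc2 peak in the ClpX comparison (chr17:24596565-24596745, minus strand) lay 749 bases before the gene's end. It was called higher at a log2 fold change of 2.98 with an adjusted p of 1.26e-08 per the authors' deposited table, but at a fold enrichment of 1.71, the lowest of any pathway peak there. The ClpP comparison listed another Tsc2 peak closer to the end (chr17:24596295-24596415), at 2.91 with an adjusted p of 0.326 per the authors' deposited table. That peak shared bases with a peak of Pkd1 on the opposite strand, so its reads may belong to either gene. Tsc1 had 4 peaks for ClpP, at -0.70, 0.86, -0.24 and -0.52, and 3 for ClpX, at 1.12, -0.03 and 0.00, in the authors' deposited tables. None of the Tsc1 peaks was called. The stronger of its sites shared by both comparisons (chr2:28685853-28687363 for ClpP) had fold enrichments of 12.4 and 13 and values of -0.24 and -0.03 in the authors' deposited tables.

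Among the growth factor kinases, the same sites were called in both knockouts for Pik3ca and Pdpk1. Pik3ca, the catalytic p110-alpha subunit of PI3K, had a strong peak near its 3′ end (chr3:32461746-32463148, plus strand). The authors' deposited tables gave it a log2 fold change of -0.96 for ClpP (fold enrichment 29.2, adjusted p 0.0117) and -1.44 for ClpX (34.3, 0.0151). Pdpk1, the kinase PDK1 that activates AKT and S6 kinase, went the other way at chr17:24078713-24079132 (minus strand), with 0.56 for ClpP (adjusted p 0.0151) and 1.21 for ClpX (1.35e-08) in the authors' deposited tables. Both comparisons use the same WT libraries, so a shared direction is not 2 independent observations. Akt2 was called higher for ClpX alone, at 1.5 with a fold enrichment of 1.77 and an adjusted p of 0.000468, against 0.56 (0.198) for ClpP, in the authors' deposited tables. Akt1 was not called, at -1.53 (ClpP) and -0.40 (ClpX) in the authors' deposited tables.

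The mTORC2 genes held one further site called in both knockouts. Rictor, the defining subunit of mTORC2, was called lower at chr15:6795959-6797525, with -0.58 for ClpP (fold enrichment 25, adjusted p 0.0347) and -0.82 for ClpX (18.4, 0.010) in the authors' deposited tables. Its other peak, upstream at chr15:6786428-6787207, was at 0.00 and 0.59 there and was not called in either of the authors' deposited tables. Mapkap1, which encodes the mTORC2 subunit SIN1, was called higher for ClpX at 0.78 (fold enrichment 1.94, adjusted p 0.0257) in the authors' deposited table, and stood at 0.44 (0.0575) for ClpP. Its 3′ peak and the Prr5 peak were not called, with values from -0.27 to 0.48 over both of the authors' deposited tables.

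The energy and stress branch contained the one gene called in both directions within a comparison. Stk11 encodes LKB1, the kinase that activates AMPK. In the ClpP comparison its 5′ peak (chr10:80116342-80116850, plus strand) was called lower at -1.63 with a fold enrichment of 7.34 and an adjusted p of 6.76e-08 per the authors' deposited table. Its 3′ peak (chr10:80130443-80130682) was called higher at 0.85 with 3.76 and 0.0389 in the authors' deposited table. For ClpX the same 2 sites stood at -0.73 (adjusted p 0.0851, not called) and 1.20 (0.000851, called higher) in the authors' deposited table, so each kept its sign. The 3′ peak shared bases with a peak of Cbarp on the opposite strand and may hold reads of that gene. Prkaa1, a catalytic subunit of AMPK, was called higher for ClpX at chr15:5176522-5176820, with 1.29 and an adjusted p of 0.00269, against 0.22 (0.397) for ClpP, in the authors' deposited tables. Prkaa2, the other catalytic subunit, was at 1.58 in each comparison, but at peaks that did not overlap. Neither Prkaa2 peak was called, with adjusted p of 0.614 (ClpP) and 0.634 (ClpX) in the authors' deposited tables. Ddit4, a stress-induced inhibitor of mTORC1 also called REDD1, was at -0.60 (ClpP, adjusted p 0.0933) and 0.47 (ClpX, 0.366) at chr10:59950234-59950977 (minus strand) in the authors' deposited tables.

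The Rag GTPases had their called peaks on 1 gene, in 1 comparison. RagC pairs with RagA or RagB and binds raptor at the lysosome. Its gene Rragc had 2 adjoining peaks at the 3′ end called lower in ClpP cKO, the last of them ending with the gene itself. In the authors' deposited table for ClpP the larger (chr4:123935566-123936580, plus strand) was at -0.62 with a fold enrichment of 11.1 and an adjusted p of 8.51e-05, and the terminal one (chr4:123936669-123936997) at -1.56 with 4.96 and 6.31e-14. The authors' deposited table for ClpX had peaks over exactly these spans, at 0.06 and 0.37 with adjusted p of 0.589 and 0.409. Rragc and Mtor were thus alike in being called lower near the gene's end for ClpP with values at or above 0 for ClpX. A further Rragc peak, in the ClpX comparison alone, was at -0.50 in the authors' deposited table. Rraga was at 0.01 (ClpP) and 0.15 (ClpX) over most of its single-exon gene in the authors' deposited tables. Rragb was at 0.38 and 0.41 for ClpP and at 0.41 for ClpX in the authors' deposited tables. Rragd had -0.50 and 0.00 for ClpP and -2.49 and 0.02 for ClpX in the authors' deposited tables, the -2.49 with an adjusted p of 0.377.

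The Rag regulators and their lysosomal anchor gave single calls. Flcn, folliculin, which acts on RagC and RagD, was called lower for ClpP at chr11:59791825-59794172 (minus strand), with -0.71 and an adjusted p of 6.03e-05, and was at -0.05 (0.592) for ClpX over the same span, in the authors' deposited tables. Of its partners, Fnip2 was called higher for ClpX at chr3:79457862-79458132 (minus strand), with 2.21 and an adjusted p of 0.0269, against 1.48 (0.166) for ClpP, in the authors' deposited tables. All 4 (ClpP) and 5 (ClpX) Fnip2 peaks had positive values, from 0.14 to 3.17 and from 0.01 to 3.58 in the authors' deposited tables. The values grew toward the gene's end, and the strongest and most upstream-lying of the shared peaks, at fold enrichments of 48.2 and 51.3, had 0.14 and 0.01 in the authors' deposited tables. Fnip1 was not called, with values from -0.45 to 1.13 over both of the authors' deposited tables.

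Of the Ragulator, the scaffold that holds the Rag GTPases on the lysosome, only Lamtor1 and Lamtor2 were measured. A peak assigned to Lamtor1 (chr7:101912957-101913463, plus strand) was called higher for ClpX at 1.32 with an adjusted p of 1.48e-06, against -0.33 (0.0617) for ClpP, in the authors' deposited tables. That peak lay wholly past the end of the RefSeq span of Lamtor1 and shared bases with a peak of Lrrc51 on the opposite strand, so which gene it belongs to is uncertain. The Lamtor1 peak inside the gene was at 0.00 (ClpP) and 0.30 (ClpX) in the authors' deposited tables and was not called. Lamtor2 had peaks at both ends of the gene, none called, with values from -1.0 to 1.83 over both of the authors' deposited tables.

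GATOR1 turns the Rag GTPases off when amino acids are scarce, and GATOR2 opposes it. Mios, a GATOR2 subunit, was called higher for ClpP over a peak of 4 blocks (chr6:8211629-8222693, plus strand), at 0.66 with a fold enrichment of 14.3 and an adjusted p of 2.69e-05, against 0.25 (0.314) for ClpX, in the authors' deposited tables. Wdr24 was called higher for ClpX at chr17:25824522-25825111 (plus strand), at 2.0 with a fold enrichment of 1.93 and an adjusted p of 0.000479, against 0.95 (0.157) for ClpP, in the authors' deposited tables. Wdr59 was called lower for ClpX at chr8:111449874-111451041 (minus strand), at -0.84 with 24.8 and 0.0224, against -0.43 (0.173) for ClpP, in the authors' deposited tables. The 3 GATOR2 subunits with calls therefore did not share a direction within a comparison: Wdr24 and Wdr59 were called opposite ways for ClpX. The Wdr59 peak shared bases with a peak of the microRNA gene Mir1957b on the opposite strand. Sec13, a subunit shared with coat and nuclear pore complexes, was measured for ClpX alone, at 2.0 with an adjusted p of 0.603 per the authors' deposited table. On the GATOR1 side, Nprl3 was called higher for ClpX at chr11:32231641-32231850 (minus strand), at 1.78 with a fold enrichment of 1.99 and an adjusted p of 0.00055 per the authors' deposited table. That peak lay past the end of the RefSeq span of Nprl3 and shared bases with a peak of Mpg on the opposite strand. Depdc5 had 2 peaks, at -0.80 and 0.32 for ClpP and at -0.40 and -1.49 for ClpX in the authors' deposited tables, none called. Itfg2, the measured subunit of KICSTOR, which anchors GATOR1, was at -0.47 and 1.0 in the authors' deposited tables and was not called.

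Among the sensors of leucine, arginine or S-adenosylmethionine, 1 peak was called. Sesn3, a sestrin, was called lower for ClpX at chr9:14331691-14332111 (plus strand), at -1.26 with a fold enrichment of 9.47 and an adjusted p of 0.0245, against 0.17 (0.498) for ClpP, in the authors' deposited tables. The peak lay beyond the RefSeq span of Sesn3, which ends at 14326134. Bmt2, which encodes the S-adenosylmethionine sensor SAMTOR, carried the strongest pathway peak of the ClpX comparison, with a fold enrichment of 57.7, and stood at -0.60 (ClpP) and -0.55 (ClpX), not called in either of the authors' deposited tables. Castor1 and Castor2, arginine sensors, were measured for ClpX alone, at 1.19 and 1.09 with adjusted p of 0.619 and 0.579 in the authors' deposited table. Slc38a9, the lysosomal arginine sensor, had values of 0.58 and 2.18 (ClpP) and 2.63 (ClpX), at 3 different places and none called, in the authors' deposited tables.

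Sesn1, another sestrin, had the strongest sensor peak of the ClpP comparison, and stretches of both blocks of that peak lay within promoter windows for which sequence was at hand. Its 2-block peak (chr10:41810474-41887480, plus strand) had fold enrichments of 33.6 and 50.4 and log2 fold changes of 0.13 and 0.97, not called in either of the authors' deposited tables. It is shown because its part within the RefSeq promoter windows (GRCm38.p6) held the m6A motif GGAC. Besides Sesn1, only Rps6kb1 had peaks with bases in a promoter window for which sequence was at hand. The run below is chr10:41810600-41810623, read on the plus strand, with GGAC in capitals.
Sesn1: taccagccttttgGGACcaagcac
GGAC was searched on the transcript strand only. It occurs in 43.1% of all 32851 windows of 150 bases, the last 150 of each promoter sequence, so a match in such windows is common. A promoter sequence covers 250 bases before the gene's start and 50 after it, so these windows lie mostly before the start. The Sesn1 stretch with the match was 150 bases for ClpP and 90 for ClpX. The other Sesn1 stretch in a promoter window (chr10:41887439-41887480, 42 bases) held no GGAC. The part of the Rps6kb1 peaks within a promoter window, 48 bases for ClpP and 18 for ClpX, held no GGAC. A match is a description and does not place the mark.

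The substrates and translation outputs held 4 of the 14 peaks called higher for ClpX, on Eif4b and Eif4e. Eif4b, an initiation factor that helps unwind mRNA and is phosphorylated by S6 kinase, had 5 peaks for ClpP and 4 for ClpX. For ClpX 3 of them were called higher, at chr15:102086604-102090195 (1.03, adjusted p 2.04e-07), chr15:102091484-102093673 (1.0, 0.00170) and chr15:102095171-102095644 (1.21, 1.66e-10) in the authors' deposited table. Their fold enrichments were between 1.98 and 3.32 in the authors' deposited table. For ClpP only the last site was called, higher at 0.36 with an adjusted p of 0.0380 per the authors' deposited table, while its other peaks ranged from -0.78 to 0.21. The site between, at chr15:102094643-102094991 for ClpX, was at -0.25 (ClpX) and -0.78 (ClpP), not called in either of the authors' deposited tables.

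Eif4e held the one site among the 56 genes that was called in opposite directions. It encodes the cap-binding protein that 4E-BP proteins hold back. Its 3′ site (chr3:138553695-138555661 for ClpP, plus strand) was called lower for ClpP, at -0.59 with a fold enrichment of 4.85 and an adjusted p of 0.000316 per the authors' deposited table. For ClpX it was called higher, at 0.41 with 5.33 and 0.00933, in the authors' deposited table. The difference between the knockouts was not tested, and the ClpX value turned to -0.07 once the median of peaks of like fold enrichment was subtracted. Of the 4E-BP genes, Eif4ebp2 was called lower for ClpP at chr10:61431397-61431907 (minus strand), at -1.33 with a fold enrichment of 15.3 and an adjusted p of 0.0145, against -0.91 (0.193) for ClpX, in the authors' deposited tables. Eif4ebp1 had 2 peaks, at -0.20 and 0.08 (ClpP) and at 0.79 and -2.58 (ClpX), none called, in the authors' deposited tables. The S6 kinase genes were not called: Rps6kb2 was at -2.03 (ClpP) and -2.60 (ClpX), the lowest pathway value of each comparison, with adjusted p of 0.401 and 0.275, in the authors' deposited tables. Rps6kb1 ranged from -1.34 to 1.33 over both of the authors' deposited tables. Pdcd4, a translation inhibitor degraded after S6 kinase acts on it, was at -0.54 (ClpP, adjusted p 0.0550) and 0.72 (ClpX, 0.137), and Tfeb, the lysosomal transcription factor, at 0.07 and 0.70, in the authors' deposited tables.

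The strength of a peak went with the direction of its call in the ClpX comparison. The 14 pathway peaks called higher had fold enrichments from 1.71 to 6.09 and the 4 called lower from 9.47 to 34.3, so the groups did not overlap. All peaks of that comparison showed the same gradient. With peaks split into 5 classes of equal number by fold enrichment, the median log2 fold change of all peaks fell from 0.81 in the weakest class to 0.48, 0.22, 0.00 and -0.26 in the strongest. In the weakest class 33.2% of all peaks were called higher and 1.29% lower, and in the strongest 3.46% and 11.7%. Over all peaks both calls occurred in every class. The pathway medians in these classes were 0.95, 0.40, 0.15, 0.18 and -0.10. In the ClpP comparison the medians of all peaks ran from 0.17 in the weakest class to -0.17 in the strongest. The pathway medians there were 0.03, 0.04, -0.49, 0.00 and 0.07 and did not follow that order. The ClpP pathway peaks called lower had fold enrichments from 4.85 to 29.2, against 2.62 to 14.3 for those called higher.

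**Figure D2:**
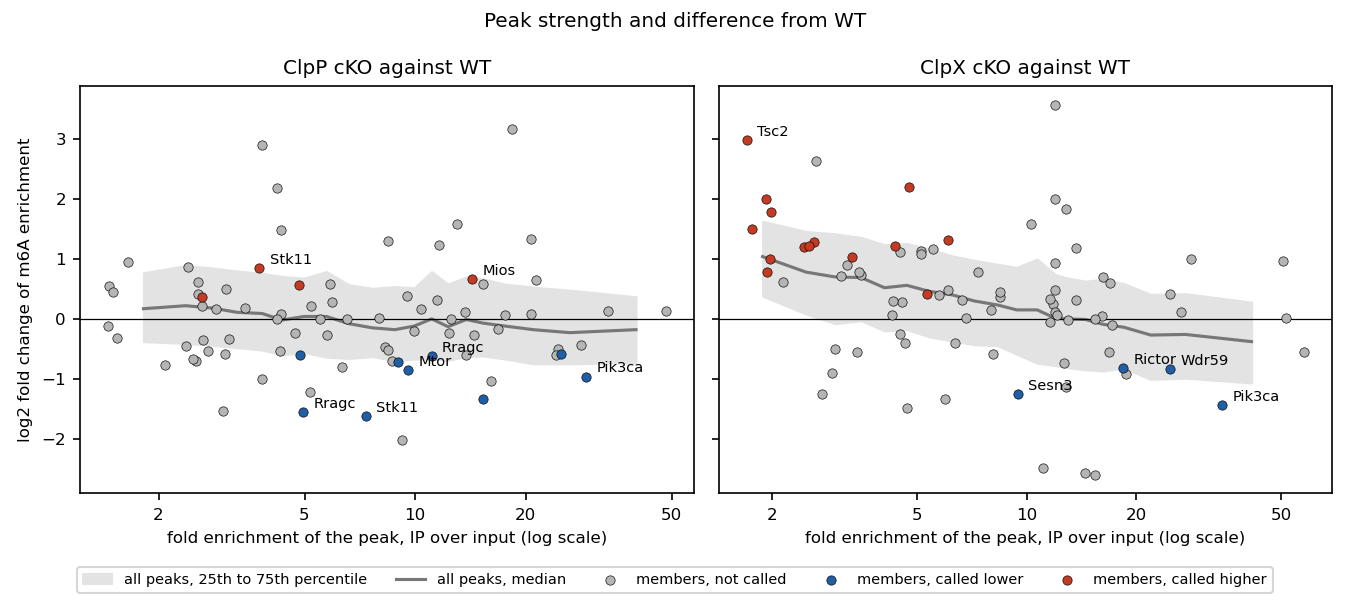
Fold enrichment of each mTORC1 pathway peak (x axis, IP over input, log scale) against its log2 fold change of m6A enrichment (y axis, cKO over WT), with ClpP left and ClpX right; the line is the median and the band the 25th to 75th percentile of all peaks of like strength. In the ClpX panel the 14 peaks called higher lie at fold enrichments of 6.09 or less and the 4 called lower at 9.47 or more, along the slope of all peaks.

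Some calls depended on this gradient. When the median of all peaks in the same class was subtracted and peaks were called anew, an alternative chosen after seeing the data, 4 of the 18 pathway peaks called for ClpX were still called. These were Tsc2, Lamtor1 and Pdpk1, called higher, and Sesn3, called lower. Mapkap1 and Eif4e changed sign there, to -0.03 and -0.07, and the other 12, among them Pik3ca, Rictor, Wdr59, Akt2, Prkaa1, Nprl3, Wdr24, Stk11 and all 3 sites of Eif4b, kept their sign without being called. For ClpP 11 of 13 were still called, Rictor and Eif4b being lost. Subtracting the median of all peaks instead ended the ClpX calls of Mapkap1 (0.54), Fnip2 (1.97) and Eif4e (0.17), and none of the 13 for ClpP. The split of ClpX calls between higher and lower was 14 to 4 as deposited, 12 to 7 with the median of all peaks subtracted, and 4 to 2 with the class medians subtracted. The last 2 splits include pathway peaks that were not called as deposited. The cause of the gradient was not tested.

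The deposited p-values may also be one-sided. For peaks whose log2 fold change lay within 0.05 of 0, their median was 0.546 (1138 peaks, ClpP) and 0.570 (850 peaks, ClpX), and the largest p in either table was 0.778. With each p doubled and adjusted anew, 10 of 13 (ClpP) and 16 of 18 (ClpX) pathway peaks were still called. Those lost were the 3′ peak of Stk11, Rictor and Eif4b for ClpP, and Mapkap1 and Fnip2 for ClpX.

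Sites with a peak in both comparisons could be set side by side. There were 68 such sites on 40 pathway genes, paired where they shared at least 1 base on the same strand. At these sites the log2 fold change for ClpX exceeded that for ClpP by a median of 0.41, and by 0.27 over all 18709 sites paired in this way. It was the higher of the 2 at 50 of the 68, or 73.5%, against 59.5% of all paired sites. The widest gap among sites with a call was that of the terminal Rragc peak, at 1.93, followed by Lamtor1 at 1.65. Of the sites, 6 were called in both. Eif4b, Pdpk1 and the 3′ site of Stk11 were called higher, Pik3ca and Rictor lower, and Eif4e lower for ClpP and higher for ClpX. Eif4e alone had an adjusted p under 0.01 in both. All values rest on the same WT libraries.

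**Figure D3:**
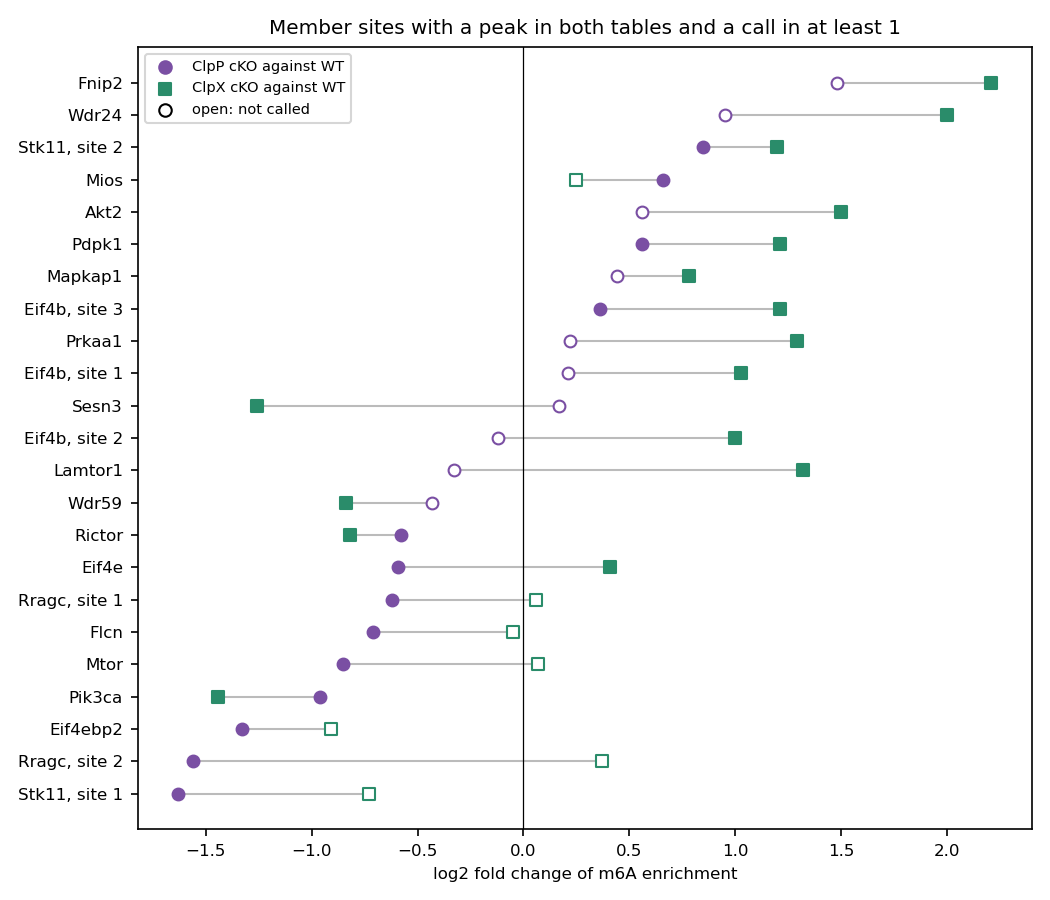
Log2 fold change of m6A enrichment (x axis, cKO over WT) for ClpP (circles) and ClpX (squares) at each mTORC1 pathway site with a peak in both comparisons and a call in at least 1 (y axis, sites of a gene numbered from the lowest coordinate). Filled symbols were called, open ones not; the terminal Rragc site spans -1.56 to 0.37, and Eif4e is the one site filled on both sides of 0.

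Peaks of the pathway lay toward gene ends. Of those that could be placed on a RefSeq span, 39 of 79 (49.4%, ClpP) and 42 of 80 (52.5%, ClpX) had their centre in the last 10% of the gene or past it, against 39.4% and 37.8% of all placed peaks. Pathway peaks were weaker than all peaks by median fold enrichment, at 6.13 against 8.23 (ClpP) and 7.35 against 8.90 (ClpX). Peaks of more than 1 block, whose gaps were not compared with exons, made up 31.2% and 33.3% of pathway peaks, against 29.7% and 27.5% of all peaks. These shares describe the gene list and were not tested.

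Sites within one gene often differed in sign. Of 25 pathway genes with several peaks for ClpP, 12 (48.0%) had values of both signs, against 57.9% of all such genes. For ClpX these were 14 of 21 (66.7%) and 54.5%. These counts take every value, including values near 0 and peaks not called. Calls in both directions within a pathway gene were found for 1 gene for ClpP, Stk11, and for 0 for ClpX. The widest spread within a gene with calls on several peaks was that of Stk11, from -1.63 to 0.85 for ClpP. A gene's value therefore depends on which of its peaks is read, which applies to the medians over genes given above.

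**Figure D4:**
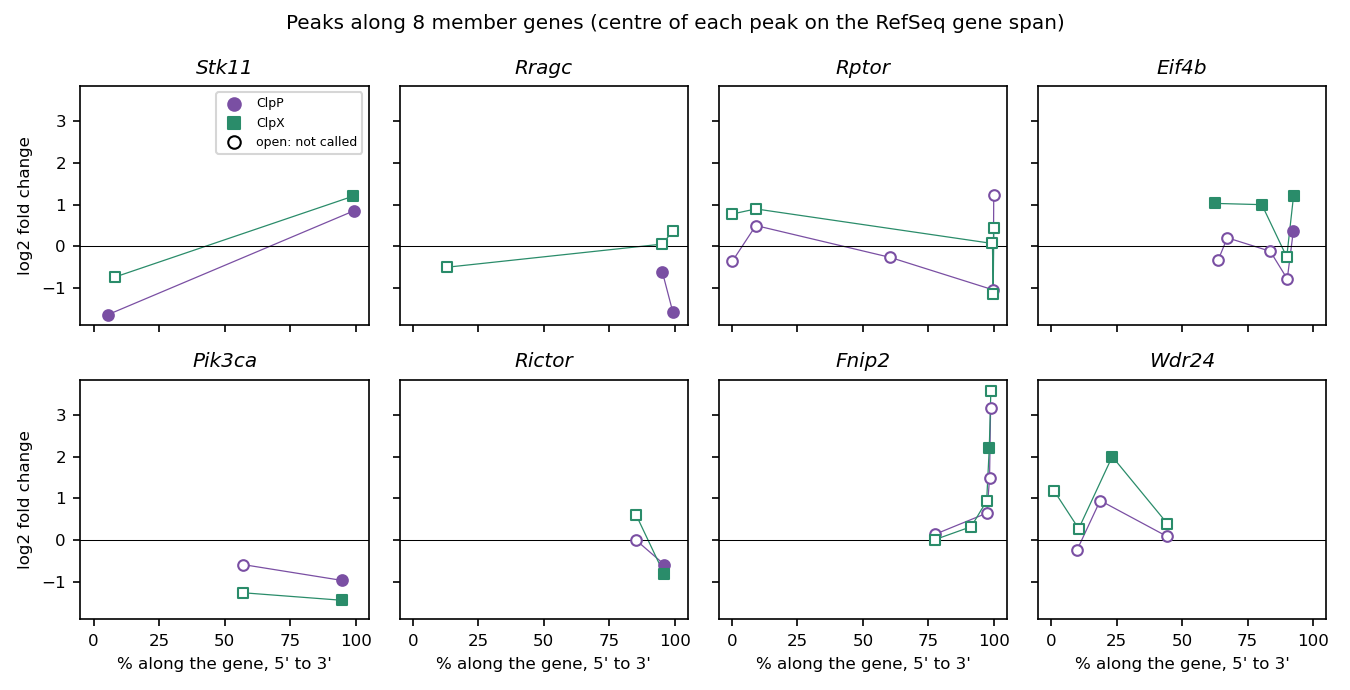
Log2 fold change of m6A enrichment (y axis, cKO over WT) against the position of each peak's centre along the gene (x axis, percent of the RefSeq span from 5′ to 3′) for 8 mTORC1 pathway genes, with ClpP as circles and ClpX as squares, filled where called. The 2 Stk11 peaks lie on opposite sides of 0 in both comparisons, and the 2 Rragc peaks at the 3′ end are below 0 for ClpP alone.

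The other genes of the pathway were 87 further names listed by function. For ClpP 60 of them had 122 peaks, of which 10 (8.20%) were called higher and 15 (12.3%) lower. For ClpX 59 had 121 peaks, of which 23 (19.0%) were called higher and 3 (2.48%) lower. The shares over all peaks were 6.74% and 12.8% (ClpP), and 15.1% and 5.0% (ClpX). The smallest adjusted p for ClpP belonged to Larp1, which binds mRNAs of the translation machinery, called lower at -1.39 (5.01e-40) and at a further site at -0.54 (3.02e-07) in the authors' deposited table. Next came Slc7a5, a leucine transporter, at -0.65, the elongation factor Eef2 at -0.30, the mTOR assembly factor Tti1 at -0.77 and the vacuolar ATPase subunit Atp6v1d at -0.42, all called lower in the authors' deposited table. For ClpX the smallest were those of the stress transcription factor Atf4 (1.65, 2e-23), the initiation scaffold Eif4g1 (1.40), Tti1 (1.71), Atp6v1d (0.67), Sar1b (2.31) and the autophagy kinase Ulk1 (1.79), all called higher in the authors' deposited table. Genes with a call in both comparisons included Larp1, Eef2, Tti1, Atp6v1d, Atg13, Sesn2, Hif1a, Ulk2 and Prkab2, for some of them at different sites. The Tti1 values above belong to different sites. At the site called lower for ClpP, Tti1 was also called lower for ClpX, at -0.48 (adjusted p 0.00110) in the authors' deposited table. At the same Larp1 site the authors' deposited tables gave -1.39 for ClpP and 0.61 for ClpX, and at the same Atp6v1d site -0.42 and 0.67, so sites of these further genes were also called in opposite directions.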

How the data were processed

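The authors deposited 2 tables of their own, 1 for each knockout against WT, each resting on 4 libraries. Per the file headers, the authors give for each peak its blocks, its p-value, scores that are the log10 of p-values and adjusted p-values, a fold enrichment (a linear ratio) and a log2 fold change between genotypes. Coordinates are on GRCm38 (mm10), according to the submitters' processing notes. The sources used here do not give the aligner, the peak caller or the normalization. Depth is unknown, so no interval that needs it is given.

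Calls use the authors' adjusted p under 0.05, over the whole table. A gene takes its peak of smallest p. Peaks of both tables were paired by best mutual overlap of at least 1 base, block by block. Gene spans are RefSeq's (GRCm38.p6). Values are given for every called peak, every peak of the mTORC1 complex, TSC complex and Rag GTPases, the widest values of a role, and, of the other pathway genes, the 6 peaks of smallest adjusted p per comparison and genes called in both. One gene that this rule takes is not reported here. Members, lists and alternatives were chosen with earlier results of these data known. Marker and pathway lists are from general knowledge. Scripts ran in Python 3.11.15 with pandas 2.3.3, numpy 2.4.6 and scipy 1.17.1, and calling anew was tested on simulated data.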

Additional observations from a re-analysis of the deposited data

Results flagged for a closer look

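The 3′ site of Eif4e was called in opposite directions in the 2 comparisons, with log2 fold changes of -0.59 for ClpP cKO and 0.41 for ClpX cKO in the authors' deposited tables. The difference between the knockouts was not tested, since each group holds 1 library. The ClpX value moved to 0.17, not called, with the median of all peaks subtracted, and to -0.07 with the median of peaks of like fold enrichment subtracted.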

How the results depend on the processing

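No paired analysis was possible because each group holds 1 library, and no library could be left out for the same reason. With an adjusted p under 0.01, the counts were 1 higher for ClpP, 0 lower for ClpX and 1 site called in both. That site was the 3′ site of Eif4e, so no site was then called in the same direction in both. Under 0.1 the counts were 14 lower for ClpP and 10 sites called in both. Asking also for a log2 fold change of 1 or more in size, 0 peaks were higher and 3 lower for ClpP, and 2 were lower for ClpX. With a fold enrichment of at least 2, 8 were higher for ClpX, since weak peaks are left out. Taking the mean over a gene's peaks, the medians over genes were -0.17 (ClpP) and 0.33 (ClpX), and the peak of highest fold enrichment gave 0.14 (ClpX). Subtracting the median of all peaks gave a gene median of 0.20 and 7 lower peaks for ClpX. Subtracting the median of each of the 5 classes of fold enrichment gave 0.30, 4 higher and 2 lower peaks for ClpX, and turned Mapkap1 to -0.03 and Eif4e to -0.07. With the deposited p doubled, 2 peaks were higher for ClpP. Apart from the filter, the cause was not tested. Leaving out peaks that share bases with another gene's peak, or pairing at an overlap of 50 percent, kept the counts within 1.5 times of those reported. Subtracting the class medians and doubling p were chosen after seeing the data. The planned calling after median subtraction was replaced after its counts were seen, because its error went to 0 with the log2 fold change. Its place was taken by errors pooled over peaks of like support for peaks with a p of 0.2 or more. Peak lists give no value per library, so what depth limits could not be measured.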
